A study of Mus musculus with 123 samples.

Results

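Potassium channel genes were taken as all genes of the RNA table whose symbol starts with Kcn, which gave 72 of 13842 genes in mouse cerebral cortex. They fall into 20 subfamilies by the letters after Kcn, the largest being Kcnj with 11 genes, Kcnk with 9 and Kcnh with 7. RNA-seq and ATAC-seq (which marks open chromatin by transposase insertion) were run on the cortex of single animals, of which 3 (2 at T66 and 1 at ZT18) had an RNA library only; all were male C57BL/6J mice, an inbred strain, aged 11 to 12 weeks and kept in a cycle of 12 h light and 12 h dark. Sleep deprivation used gentle handling and lasted 6 h from ZT0 to ZT6 (zeitgeber time, hours after lights on), starting at 24 h on the clock of the study. Groups T27 and T30 were taken after 3 h and 6 h of deprivation, T36 and T42 at 6 h and 12 h of recovery, and T48, T54, T60, T66, T72, T78, T192 and T198 later, with 3 RNA animals each. Undisturbed controls numbered 8 (ZT0), 3 (ZT3), 5 (ZT6), 5 (ZT12) and 5 (ZT18), and each deprived group was compared with controls of its own time of day. T36 animals carry a description of ongoing deprivation, although by the protocol it had ended 6 h before, and the protocol was followed. All animals were anaesthetized with isoflurane before the cortex was taken.

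Potassium channels let potassium ions leave or enter cells along their gradient and so set the resting potential, the shape of the action potential and the interval between spikes. Voltage-gated channels (Kcna to Kcnh, Kcnq, Kcns, Kcnv) open on depolarization, inward rectifiers (Kcnj) and 2-pore channels (Kcnk) hold the resting potential, and calcium- or sodium-gated channels (Kcnn, Kcnma, Kcnt) follow activity. Accessory subunits (Kcnab, Kcnip, Kcnmb, Kcne) change their gating and their transport to the membrane. In the cortex they are known for their part in firing patterns across wake and sleep.

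Each RNA library had over 36 M mappable reads by the labels (median 55 M), and the deposited values, in log2 units of a depth-normalized level, do not show depth. Levels are therefore compared for the same gene between groups and not between genes. Of the 72 genes, 54 had a mean level above the 25th percentile of all genes and 18 lay below it, and every one had a value in every library, from -0.13 to 8.25. Markers of excitatory neurons (summed depth-normalized level 1067 to 1147 at ZT0), inhibitory neurons (897 to 935) and astrocytes (1169 to 1328) were present, as were lower levels of striatal markers (121 to 139, 5 of 6 genes measured). Libraries carried 2 batch labels: T60, T66, T192 and T198 were wholly batch 2, other deprived groups and ZT3 batch 1, and the remaining control times held both. The measure is of whole cortex, so fewer cells of a type and less RNA per cell cannot be told apart.

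In 26 of the 72 genes the level differed from controls in at least 1 deprived group, and 25 of these were called at T27, T30 or T36 (limma, Benjamini-Hochberg adjusted p below 0.05 over all genes, here "called"). The share of all genes called in at least 1 deprived group was not counted, so these 2 counts are not read as particular to the channel genes. At T27, 8 genes were higher and 3 lower, against 8.21% higher and 7.37% lower among all genes. At T30, 13 were higher and 8 lower (all genes 16.0% and 15.6%), and at T36, 8 were higher and 2 lower (all genes 7.46% and 4.46%). The called shares of the channel genes, 15.3%, 29.2% and 13.9%, were close to those of all genes, 15.6%, 31.6% and 11.9%. The median change of the 72 genes was -0.03 at T27, 0.003 at T30 and 0.04 at T36 in log2 units, beside -0.005, -0.003 and 0.004 over all genes. All 11 genes called at T27 were also called at T30 in the same direction, while 4 of the 13 genes higher at T30 were also higher at T36. The matching shares over all genes were not counted, so these counts are not read as particular to the channel genes. At T27 the libraries of all 11 called genes did not overlap with those of controls, which was also so for 16 of 21 at T30 and 9 of 10 at T36. Of all called genes, 95.4%, 82.1% and 87.2% had libraries without overlap at T27, T30 and T36.

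Single libraries moved some of these counts. The 8 genes higher at T27 became 3 without ZT3 animal T3N3, 4 without T27S3, and 5 without T3N2, T27S2 or T27S5. The 8 lower at T30 became 4 without T30S1, the 8 higher at T36 became 5 without T36S2, and the 2 lower at T36 became 1 without T12N2, T12N4, T12N5 or T36S1. Called in all alternatives run were 4 of 11 genes at T27 (Kcnf1, Kcnk3, Kcnj3, Kcns2), 11 of 21 at T30 (among them Kcnj12, Kcng1, Kcnk13, Kcnf1, Kcnip3, Kcnk1, Kcnip4, Kcnj3, Kcns2, Kcnd2) and 5 of 10 at T36 (Kcns2, Kcnip3, Kcnk1, Kcnh1, Kcnip4). Within batch 1 alone, 10 genes were higher and 7 lower at T30, and 7 higher and 1 lower at T36.

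**Figure D1:**
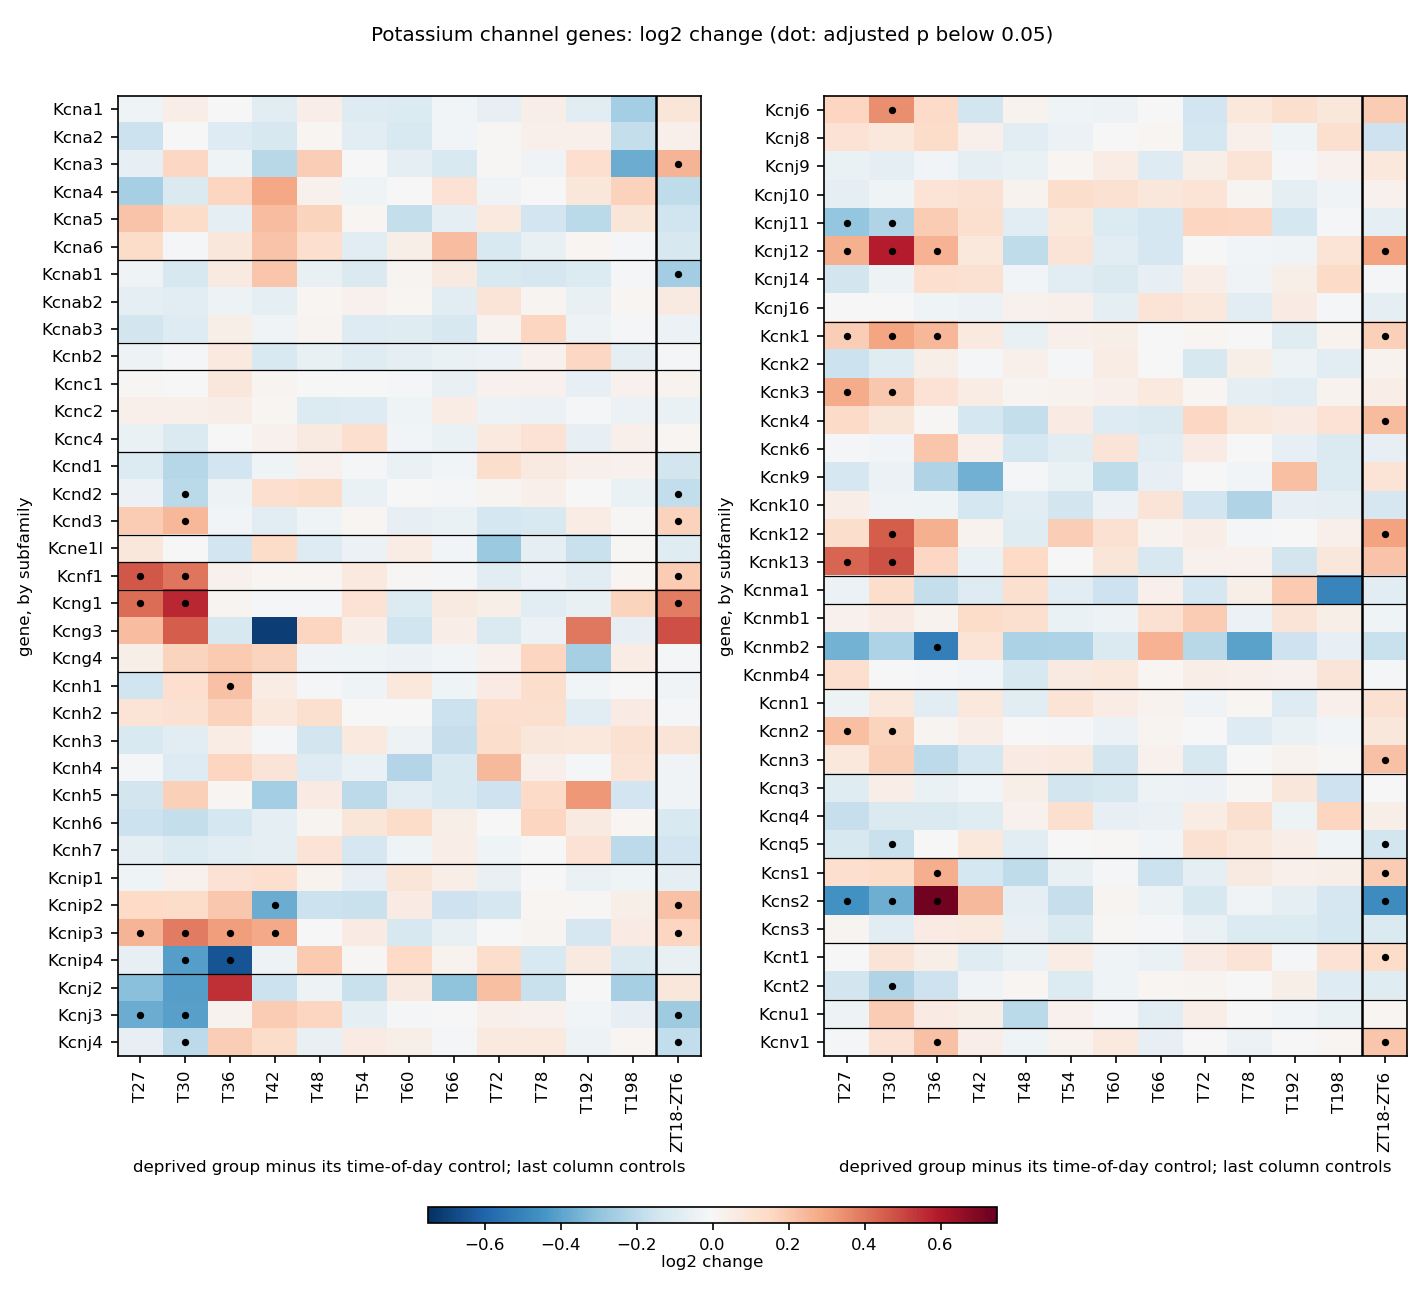
Log2 change of 69 of the 72 potassium channel genes (rows, ordered by subfamily and split over both panels) in 12 deprived groups against controls of the same time of day, and in controls at ZT18 against ZT6 (last column). Colour gives the change on 1 scale for both panels and dots mark adjusted p below 0.05; the dots of the deprived groups lie in the columns T27, T30, T36 and T42.

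Silent voltage-gated subunits, which form no channel alone and modify Kv2 channels, held the largest called change of the 72 genes (Kcns2 at T36), and they did not move one way. Of 10 measured genes of Kv2 and its partners (12 listed), 2 were higher and 1 lower at T27, 3 higher and 1 lower at T30, and 3 higher and none lower at T36. Of all genes, 8.21%, 16.0% and 7.46% were higher and 7.37%, 15.6% and 4.46% lower at these times. Calls in both directions are thus not particular to this list. The level of Kcns2 was 3.54, 3.80 and 3.47 in the T27 animals against 3.96, 4.17 and 4.04 at ZT3, and 3.59, 3.81 and 3.69 at T30 against 4.06, 4.16, 4.15, 3.86 and 4.06 at ZT6. At T36 it was 4.36, 4.50 and 4.27 against 3.51, 3.81, 3.61, 3.73 and 3.59 at ZT12. The deprived animals were thus all below controls during deprivation and all above them after 6 h of recovery. The log2 change was -0.46 ± 0.10 (SE) at T27 (adjusted p = 0.00089), -0.37 ± 0.09 at T30 (adjusted p = 0.0014) and 0.72 ± 0.09 at T36 (adjusted p = 1.13e-07), the last a 1.65-fold rise. The effect at T36 exceeded that at T30 by 1.09 ± 0.12 log2 units (limma contrast of both effects, adjusted p = 2.67e-08).

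Kcnf1, another silent subunit, was 6.09, 6.17 and 6.14 at T27 against 5.70, 5.68 and 5.62 at ZT3, and 6.07, 6.17 and 6.10 at T30 against 5.66, 5.91, 5.61, 5.69 and 5.72 at ZT6. No deprived animal overlapped with a control at either time, and at T36 the values 5.91, 5.57 and 5.71 spanned those of ZT12, 5.62 to 5.78. The rise was 0.47 ± 0.07 at T27 (adjusted p = 4.13e-06) and 0.40 ± 0.06 at T30 (adjusted p = 3.04e-06), and the effect was 0.37 ± 0.09 lower at T36 than at T30 (log2 difference -0.37, adjusted p = 0.0034). Kcng1 was 4.00, 3.72 and 3.84 at T27 against 3.57, 3.35 and 3.39, and 3.92, 3.92 and 3.71 at T30 against 3.33, 3.53, 3.31, 3.14 and 3.12. It rose by 0.42 ± 0.14 at T27 (adjusted p = 0.030) and 0.56 ± 0.13 at T30 (adjusted p = 0.00047), with all deprived animals above the controls; the T27 call was lost without T3N3, T3N4, T27S2 or T27S5 (highest adjusted p 0.145). Its effect at T36 was lower than at T30 by 0.55 ± 0.17 (log2 difference -0.55, adjusted p = 0.032).

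Kcnb2 (Kv2.2) stood at -0.01 at T30 and was not called at any time. Kcns1 was 4.08, 4.49 and 4.18 at T36 against 3.98, 4.06, 3.95, 3.95 and 3.92 at ZT12, all 3 above the controls, a rise of 0.27 ± 0.09 (adjusted p = 0.027) that was lost without T12N4 or T36S2 and within batch 1 (highest adjusted p over the alternatives 0.313). Kcnv1 rose by 0.22 ± 0.06 at T36 (adjusted p = 0.018; highest 0.105, without T12N1, T36S1 or T36S2). Kcng3, Kcng4 and Kcns3, the other measured members, were not called.

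**Figure D2:**
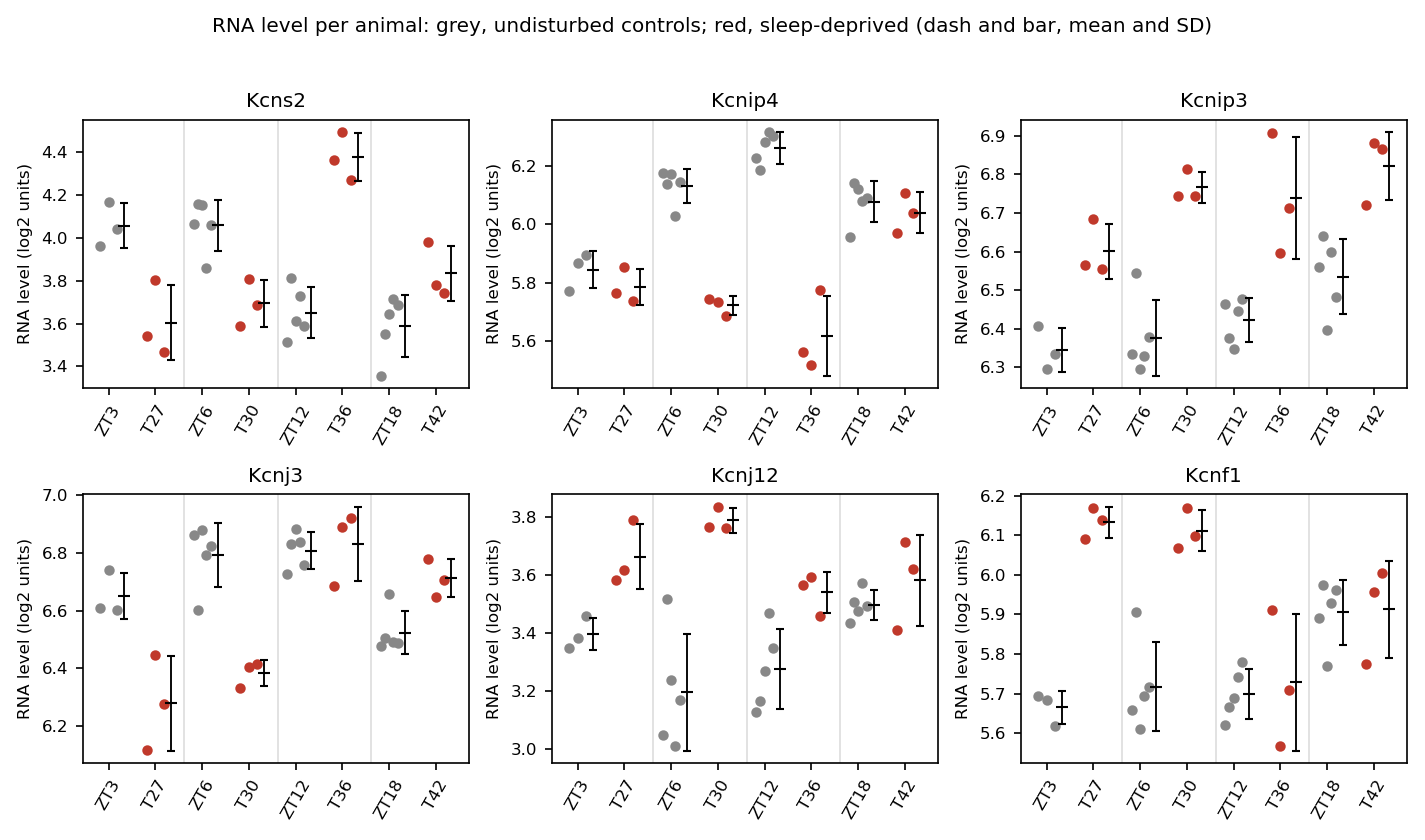
RNA level in log2 units (y axis) of 6 channel genes in each animal of 8 groups (x axis), controls in grey and sleep-deprived animals in red, with the mean and SD beside each group. Kcns2 lies below controls at T27 and T30 and above them at T36, Kcnip4 lies below at T30 and T36, and Kcnip3 lies above at all 4 times.

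The A-type complex, in which Kv4 channels (Kcnd) pair with calcium-binding KChIP proteins (Kcnip) to carry a fast transient current, changed in both directions. Of its 7 genes, 1 was higher at T27, 2 were higher and 2 lower at T30, and 1 was higher and 1 lower at T36. Of all genes, 8.21%, 16.0% and 7.46% were higher and 7.37%, 15.6% and 4.46% lower at these times. Calls in both directions are thus not particular to this complex. Kcnip3, which encodes KChIP3, also known as the transcriptional repressor DREAM, was 6.56, 6.68 and 6.56 at T27 against 6.41, 6.29 and 6.33 at ZT3, and 6.74, 6.81 and 6.74 at T30 against 6.34, 6.54, 6.30, 6.33 and 6.38. At T36 it was 6.91, 6.60 and 6.71 against 6.46, 6.38, 6.35, 6.45 and 6.48, and at T42 6.72, 6.88 and 6.87 against 6.56, 6.64, 6.40, 6.60 and 6.48. At each of the 4 times every deprived animal stood above every control. The rise was 0.26 ± 0.07 at T27 (adjusted p = 0.010), 0.39 ± 0.07 at T30 (adjusted p = 9.99e-06), 0.32 ± 0.07 at T36 (adjusted p = 0.00076) and 0.29 ± 0.07 at T42 (adjusted p = 0.020). It was the one channel gene called at all 4 times; the T27 call was lost without T3N3 or T27S3 (highest adjusted p 0.0661) and the T42 call without T42S4 or T42S6, where no member was higher, and in batch 1 alone.

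Kcnip4, whose protein shares the KChIP fold, went the other way. Its level was 5.75, 5.73 and 5.69 at T30 against 6.17, 6.14, 6.17, 6.03 and 6.14 at ZT6, and 5.56, 5.52 and 5.77 at T36 against 6.23, 6.18, 6.28, 6.31 and 6.30 at ZT12. No animal overlapped with controls at either time, while at T27 the values 5.76, 5.85 and 5.74 overlapped with those of ZT3 (5.77, 5.87 and 5.89). The fall was -0.41 ± 0.06 at T30 (adjusted p = 4.99e-07) and -0.65 ± 0.06 at T36 (adjusted p = 3.24e-11), 1.56-fold at T36, and by T42 the effect was 0.60 ± 0.08 higher than at T36 (adjusted p = 9.50e-06). Of the pore subunits, Kcnd2 (Kv4.2) fell by 0.20 ± 0.06 at T30 (log2 change -0.20, adjusted p = 0.0046) and Kcnd3 (Kv4.3) rose by 0.25 ± 0.07 (adjusted p = 0.0062, with overlapping libraries; 0.0669 in batch 1 alone). Kcnip2 fell at T42, from 6.84 ± 0.05 (SD, n = 5) at ZT18 to 6.46 ± 0.11 (SD, n = 3), a change of -0.37 ± 0.07 (SE, adjusted p = 0.0063) that was not called in batch 1 alone. Kcnd1 and Kcnip1 were not called.

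Inward rectifiers pass potassium near the resting potential, and those of the G protein-gated class open on stimulation of inhibitory receptors. Among the 3 measured of that class (4 listed), Kcnj3, which encodes GIRK1, was lower at T27 and T30. It was 6.12, 6.45 and 6.28 at T27 against 6.61, 6.74 and 6.60 at ZT3, and 6.33, 6.40 and 6.41 at T30 against 6.86, 6.60, 6.88, 6.80 and 6.82 at ZT6, without overlap. The fall was -0.37 ± 0.08 (adjusted p = 0.0010) and -0.41 ± 0.07 (adjusted p = 3.63e-05), and the effect was 0.43 ± 0.10 higher at T36 than at T30 (adjusted p = 0.0032). Kcnj6, which encodes GIRK2, rose by 0.35 ± 0.13 at T30 (adjusted p = 0.037), with overlapping libraries and a call lost without T6N2, J76N2, T30S3 or T30S4 and in batch 1 alone (highest adjusted p 0.191). Kcnj9 (GIRK3) was not called at any of these times.

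Kcnj12, a strong inward rectifier (Kir2.2), showed the largest rise of all channel genes at T30: 3.77, 3.84 and 3.76 against 3.05, 3.52, 3.24, 3.01 and 3.17 at ZT6, a change of 0.59 ± 0.09 (1.50-fold, adjusted p = 9.43e-07). At T27 it was 3.58, 3.62 and 3.79 against 3.35, 3.38 and 3.46 (0.27 ± 0.10, adjusted p = 0.048), and at T36 3.57, 3.59 and 3.46 against 3.13, 3.17, 3.27, 3.47 and 3.35 (0.26 ± 0.09, adjusted p = 0.041). The calls at T27 and T36 were each lost without several single libraries, with highest adjusted p of 0.226 (T27, lost without any 1 of its 6 libraries) and 0.144 (T36, lost without T12N1, T12N2, T12N4, T36S1 or T36S2). Kcnj11, the pore subunit Kir6.2 of ATP-sensitive channels, was 4.81, 4.87 and 5.10 at T27 against 5.20, 5.27 and 5.19, and 4.82, 5.02 and 4.96 at T30 against 5.17, 5.21, 5.08, 5.20 and 5.19. All deprived animals were below the controls, with changes of -0.29 ± 0.08 (adjusted p = 0.013) and -0.23 ± 0.08 (adjusted p = 0.021); the T27 call was lost without T3N3, T27S2 or T27S3 (highest adjusted p 0.102) and the T30 call without T30S1 and in batch 1 alone (highest 0.153). Abcc8, which encodes the sulfonylurea receptor that completes such channels, stood at -0.30 at T30 and was called lower.

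The effect on Kcnj11 was 0.42 ± 0.11 higher at T36 than at T30 (adjusted p = 0.0061), and that on Kcnj4 (Kir2.3), which fell by 0.19 ± 0.07 at T30 (log2 change -0.19, adjusted p = 0.033), was 0.38 ± 0.10 higher (adjusted p = 0.0072). The fall of Kcnj4 rested on overlapping libraries and was lost without T6N2, T6N3, J76N1, J76N2, T30S1 or T30S4 and in batch 1 alone (highest adjusted p 0.182). For Kcnj2 (Kir2.1), neither effect was called alone: the values at T30 were 3.23, 3.19 and 3.20 against 3.76, 4.02, 3.65, 3.04 and 3.61, and at T36 3.98, 4.25 and 3.79 against 3.56, 3.40, 3.20, 3.54 and 3.58. The effects of -0.41 ± 0.20 (adjusted p = 0.115) and 0.55 ± 0.20 (adjusted p = 0.065) differed by 0.96 ± 0.28 (adjusted p = 0.017). Kcnj10 and Kcnj16, which form the Kir4.1 and Kir5.1 subunits of astrocytes, were not called: the 95% interval of the change of Kcnj10 at T30 ran from -0.15 to 0.09 and that of Kcnj16 from -0.15 to 0.16.

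Among 2-pore channels, which carry background potassium current, 3 of 9 genes were higher at T27, 4 at T30 and 1 at T36, and none was lower. Of all genes, 8.21%, 16.0% and 7.46% were higher and 7.37%, 15.6% and 4.46% lower at these times. With 9 genes, the lack of lower calls is not read as particular to this subfamily. Kcnk1 (TWIK-1) rose by 0.19 ± 0.05 at T27 (adjusted p = 0.0033; 0.0539 in a fit of the groups compared only), 0.30 ± 0.04 at T30 (adjusted p = 4.28e-07) and 0.25 ± 0.04 at T36 (adjusted p = 4.18e-05). Kcnk3 (TASK-1) rose by 0.28 ± 0.07 at T27 (adjusted p = 0.0025) and 0.20 ± 0.06 at T30 (adjusted p = 0.0075; 0.0553 without T30S3). Kcnk13 (THIK-1), known from microglia, was 2.08, 2.10 and 1.77 at T27 against 1.50, 1.46 and 1.68, and 1.85, 2.19 and 2.05 at T30 against 1.70, 1.84, 1.43, 1.37 and 1.43. The deprived values lay above all controls, by 0.44 ± 0.13 (adjusted p = 0.015) and 0.48 ± 0.12 (adjusted p = 0.0016); the T27 call was lost without T3N2, T3N3, T27S2 or T27S3 (highest adjusted p 0.072). Its level lies below the 25th percentile of all genes. Beside it, 3 of 6 microglial markers were lower at T30 (Cx3cr1 -0.19, P2ry12 -0.31, Trem2 -0.51) and 1 higher (Tmem119 0.30), with a summed level of 174 to 180 against 183 to 191 at ZT6; their part in the result was not tested. Kcnk12 (THIK-2) rose by 0.45 ± 0.11 at T30 (adjusted p = 0.0016, overlapping libraries; 0.0657 in a fit of the groups compared only), and Kcnk2, Kcnk4, Kcnk6, Kcnk9 and Kcnk10 were not called.

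Of the genes for the M-channel, which damps repetitive firing, Kcnq5 fell by 0.17 ± 0.06 at T30 (log2 change -0.17, adjusted p = 0.025), a call lost without T6N4, T30S1 or T30S3 (highest adjusted p 0.139), and Kcnq3 was not called. Kcnn2, a small-conductance calcium-activated channel (SK2), rose by 0.22 ± 0.07 at T27 (adjusted p = 0.030) and 0.17 ± 0.07 at T30 (adjusted p = 0.0495). The T27 call was lost without T3N2, T3N3, T27S3 or T27S5 (highest adjusted p 0.116), and the T30 call in 12 of 16 alternatives (highest 0.372), including those without T6N4, J76N1, J76N2, T30S1, T30S3 or T30S4. Kcnt2, a sodium-activated channel (Slick), fell by 0.23 ± 0.07 at T30 (log2 change -0.23, adjusted p = 0.012; highest 0.0664, lost without T6N4 or T30S1), while Kcnt1 (Slack) was not called.

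Kcnmb2, an accessory subunit of the BK channel, was 1.89, 2.26 and 2.21 at T36 against 2.51, 2.72, 2.68, 2.93 and 2.41 at ZT12, a fall of -0.51 ± 0.16 (adjusted p = 0.025). The animals did not overlap, but the call was lost without T12N2, T12N4, T12N5 or T36S1 and in batch 1 alone (highest adjusted p 0.194). Kcnma1, the BK pore itself, was not called at any time. Kcnh1, an EAG channel (Kv10.1), rose by 0.22 ± 0.05 at T36 (5.50 ± 0.08 against 5.29 ± 0.03, SD, n = 3 and 5; adjusted p = 0.0042). The other 4 listed EAG-family genes were not called.

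None of the 9 Shaker (Kcna) and Kcnab genes was called against controls at T27, T30 or T36. The same held for the 4 Kv3 genes (Kcnc), whose fast channels serve high-frequency firing. Of all genes, 15.6%, 31.6% and 11.9% were called at these times, and the lack of calls in these short lists was not tested against those shares. At T30 the changes of Kcnc1, Kcnc2 and Kcnc4 were -0.005, 0.04 and -0.11, with 95% intervals from -0.09 to 0.08, -0.04 to 0.11 and -0.22 to 0.004. In the direct comparison of T54 with T30, Kcnc2 was lower by 0.14 (log2 difference -0.14 ± 0.04, adjusted p = 0.0090) and Kcnc4 higher by 0.24 ± 0.06 (adjusted p = 0.0032). The Shaker and Kcnab genes ranged from -0.12 to 0.16 at T30. In all, 46 of the 72 genes were called in no deprived group against its controls. Of these, 35, with Kcnc2 and Kcnc4 among them, were not called in the test over all times of day in controls either. Among the 35, Kcna3 (0.26) and Kcnn3 (0.22) were called higher at ZT18 against ZT6 in controls. The matching shares of all genes were not counted.

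At T42, 1 channel gene was higher (Kcnip3) and 1 lower (Kcnip2), against 0.614% and 0.433% of all genes. From T48 to T198 no channel gene was called by limma; at unadjusted p below 0.05 there were 10, 4, 2, 4, 10, 4, 2 and 4 of 72 at T48, T54, T60, T66, T72, T78, T192 and T198. Among all genes, 1.27% were called at T48, 0.0795% at T66, 0.00722% at T54, T60, T72 and T198 each, and 0% at T78 and T192. Leaving out T54S4 gave 2 called channel genes over these times. The median absolute change of all 72 genes was 0.123 at T30, 0.0851 at T42 and 0.0589 at T48, beside 0.115, 0.06 and 0.0569 over all genes.

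Effects at neighbouring times were compared directly. No channel gene's effect differed between T27 and T30 (0.00722% of all genes; 4 at unadjusted p below 0.05). Between T30 and T36, 5 effects were higher and 2 lower at T36 (11.4% of all genes in either direction), which are Kcns2, Kcnj2, Kcnj3, Kcnj11 and Kcnj4, and Kcnf1 and Kcng1. Between T36 and T42, Kcnip4 was higher and Kcnip2 (-0.58 ± 0.10), Kcns2 (-0.48 ± 0.12) and Kcns1 (-0.41 ± 0.12) were lower at T42, among 5 genes called (3.30% of all genes; adjusted p 0.00038, 0.019 and 0.040). T54 lies 24 h after T30, at the same time of day, and both were set against the same ZT6 animals, so the difference of their effects is that between the 2 deprived groups. It was called for 21 channel genes, 8 higher and 13 lower at T54 (23.8% of all genes). Kcnj12 was lower by 0.49 ± 0.10 (log2 difference -0.49, adjusted p = 0.00014), and Kcnip4 was higher by 0.42 ± 0.06 (adjusted p = 3.67e-06). Kcnh6, called in no single comparison, was higher by 0.27 ± 0.10 (adjusted p = 0.032).

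Genes whose proteins bind or place these channels also moved in both directions. Of 23 measured partners (24 listed), 2 were higher and 3 lower at T27, 4 higher and 6 lower at T30, and 4 higher and 1 lower at T36. Among all genes 8.21% were higher and 7.37% lower at T27, 16.0% and 15.6% at T30, and 7.46% and 4.46% at T36. These shares also stand beside the counts of pumps and carriers below, and calls in both directions are not particular to either list. Adam23, a receptor of the Lgi1 ligand near Kv1 channels, fell by 0.34 at T27 (log2 change -0.34) and 0.39 at T30 (-0.39). Dpp10, an auxiliary subunit of Kv4 channels, was lower at T30 and T36 (log2 change -0.28 each), and Akap5, an anchor for kinases at M-channels, was higher at T30 (0.31). Dlg4, the scaffold PSD-95, was higher at T27, T30 and T36 (0.14, 0.16 and 0.17), and Lgi1 was higher at T36 (0.20). Of 16 potassium pumps and carriers, 3 were lower at T27 (among them Slc24a3 -0.16 and Tmem175 -0.17), 1 was higher and 1 lower at T30 (Slc12a4 0.21, Tmem175 -0.15) and 1 was higher and 1 lower at T36 (Slc12a5 0.15, Tmem38a -0.10). The Na,K-ATPase genes in the list were not called at these times.

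Markers of other cells moved as well. At T27 the choroid plexus markers Ttr, Kl and Enpp2 were lower (-3.22, -0.41 and -0.27; 3 of 5 listed genes measured), with a summed level of 137 to 151 against 164 to 378 at ZT3. The ZT3 median was 187, so its top value came from a single animal. At other control times the highest level was 199, at ZT18. Among excitatory neuron markers, Neurod6 was higher and Rorb lower at T27 (0.44 and -0.33) and at T30 (0.43 and -0.27), and Tbr1 was lower at T27 (-0.17). The mural marker Pdgfrb (-0.34 and -0.26) and the endothelial marker Slco1a4 (-0.39 and -0.41) were lower at T27 and T30. Another endothelial marker, Ly6c1, was higher at T30 (0.40), and the mural marker Acta2 was higher at T36 (0.46). The summed endothelial level was 187 to 200 at T30 against 184 to 204 at ZT6. Of 6 oligodendrocyte markers, 3 were lower at T30 (Opalin -0.95, Aspa -0.50, Mog -0.38) and 2 at T36 (Opalin -0.43, Aspa -0.41), with summed levels of 1448 to 1945 at T30 against 1609 to 2119 at ZT6 and 1535 to 1642 at T36 against 1624 to 2081 at ZT12. The part of these markers in the channel results was not tested. None of the 6 astrocyte or 7 inhibitory neuron markers was called at T27, while Vip and Lhx6 were higher at T30 (0.29 and 0.19) and Vip and Gfap at T36 (0.49 and 0.55).

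In undisturbed mice, 31 of the 72 channel genes (43.1%) varied over the 5 times of day, beside 40.7% of all genes (limma F-test). Of these, 15 were highest at ZT18, in the dark phase, when 30.1% of all varying genes were highest. Kcna5 (Kv1.5), at a low level, had the widest range: 0.90 ± 0.23 at ZT12 (SD, n = 5; 0.68, 0.92, 0.73, 0.91 and 1.27) against 0.31, 0.28, 0.41, -0.10 and 0.24 at ZT18, a difference of 0.68 (adjusted p = 3.52e-06). Every ZT12 animal stood above every animal of the other control times. Kcnh4 (an ELK channel) was 4.40, 4.30, 4.14, 4.29 and 4.49 at ZT12 and between 3.56 and 3.97 at ZT0 (median 3.80), a range of 0.52 (adjusted p = 7.58e-07). Kcnj2 was 3.18, 3.85, 3.40, 4.22 and 3.87 at ZT18 and between 2.95 and 3.37 at ZT0 (median 3.18), a range of 0.53 with a weaker call (adjusted p = 0.027).

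Kcnip2, highest at ZT18 and lowest at ZT12, ranged over 0.50 (adjusted p = 4.43e-08), Kcns2 over 0.47 between ZT6 and ZT18 (adjusted p = 4.76e-07), Kcng1 over 0.44 between ZT0 and ZT6 (adjusted p = 0.00045) and Kcnip4 over 0.43 between ZT12 and ZT0 (adjusted p = 1.93e-10). Kcnv1 (0.33), Kcnj12 (0.32), Kcnk12 (0.30), Kcnk13 (0.30) and Kcnj3 (0.28) completed the 12 widest of the called genes. Kcng3 (0.51, adjusted p = 0.355) and Kcnmb2 (0.34, adjusted p = 0.191) had wide ranges that were not called. No Kv3, Kcnmb or Kcnn gene varied by this test, and 7 of 11 Kcnj genes and all 3 Kcnd genes did. Kcnn3 was nevertheless called higher at ZT18 against ZT6 (0.22), as was Kcna3 (0.26), which this test did not call. In batch 1 alone, 16 genes varied. At ZT18 against ZT6, 16 channel genes were higher and 6 lower (all genes 15.4% and 14.3%), among them Kcng1 (0.38), Kcnj12 (0.30) and Kcnk12 (0.30) higher and Kcns2 (-0.47), Kcnj3 (-0.27) and Kcnab1 (-0.26) lower. In batch 1 alone 3 were higher and 4 lower.

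**Figure D3:**
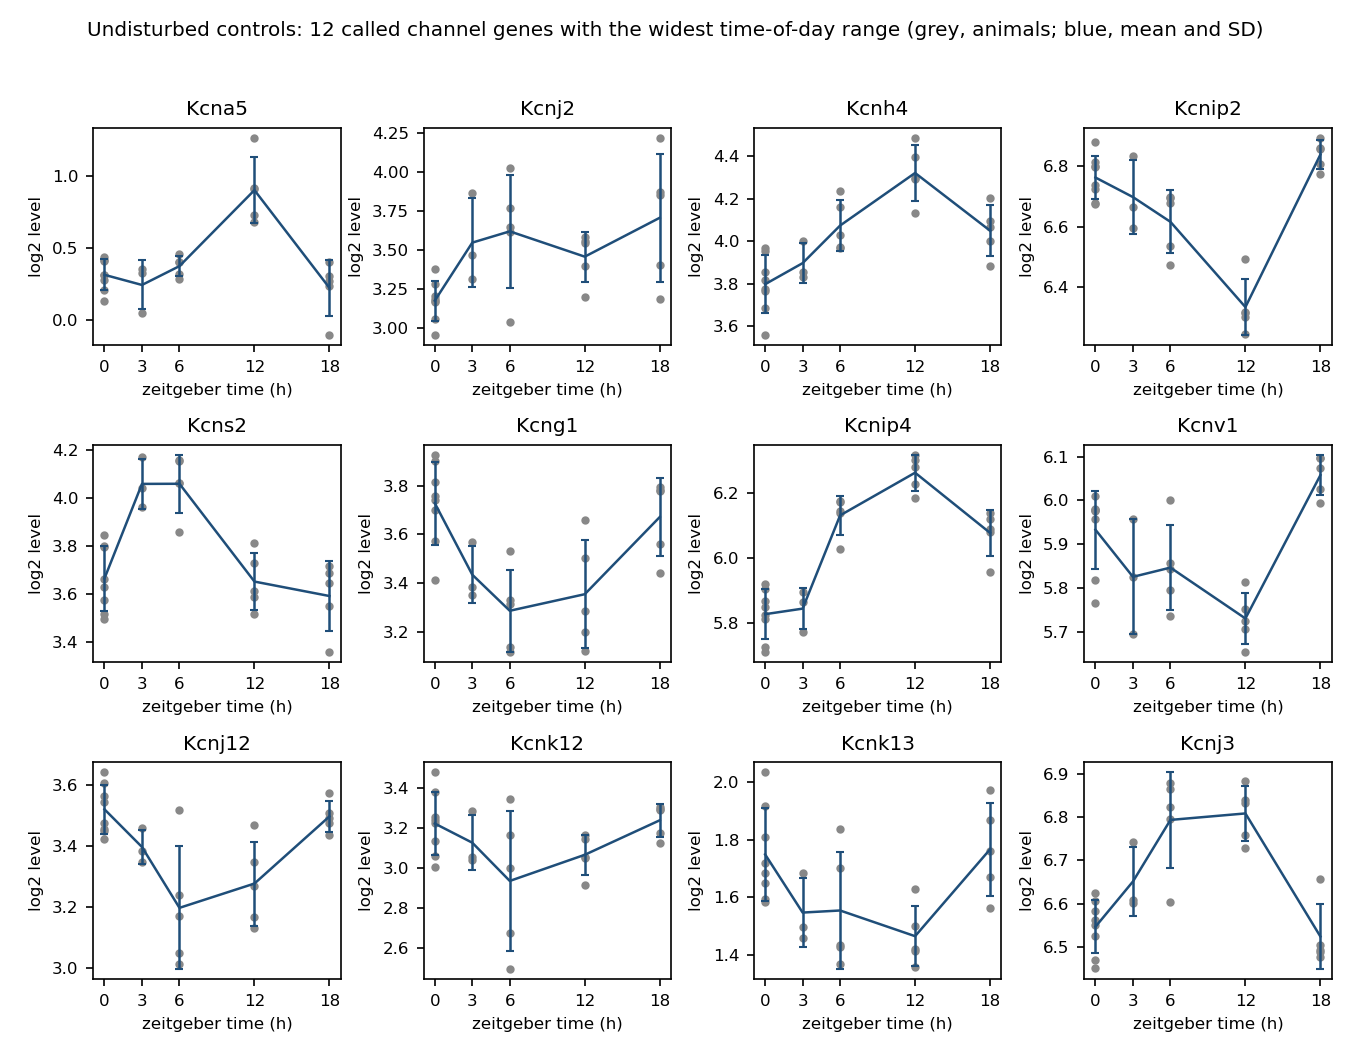
RNA level in log2 units (y axis) of the 12 channel genes with the widest range among those called over time of day in undisturbed controls, by zeitgeber time in hours (x axis), with animals in grey and the mean and SD in blue. Kcna5 and Kcnh4 stand highest at ZT12, and Kcng1, Kcnj12 and Kcnk12 stand lowest at ZT6.

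The promoter regions of 51 of the 72 genes are listed in the RefSeq table of GRCm38.p6 (74 listed starts), and 4 are shown because they belong to the gene with the most calls after deprivation (Kcnip3), the gene with the largest rise at T30 (Kcnj12) and the members of the 3 widest called over time of day that hold an E-box (Kcnj2 and Kcnh4). Each run is the 250 bases before the start, 5′ to 3′ on the strand of the gene, at chr2:127522095-127522344 (minus), chr11:61065554-61065803 (plus), chr11:111065914-111066163 (plus) and chr11:100759779-100760028 (minus); Kcnip3 has 3 listed starts, and the one with a match is printed. Capitals mark an exact match on either strand to TGACTCA (AP-1), CACGTG (E-box) or GCGTGGGC (EGR).
Kcnip3: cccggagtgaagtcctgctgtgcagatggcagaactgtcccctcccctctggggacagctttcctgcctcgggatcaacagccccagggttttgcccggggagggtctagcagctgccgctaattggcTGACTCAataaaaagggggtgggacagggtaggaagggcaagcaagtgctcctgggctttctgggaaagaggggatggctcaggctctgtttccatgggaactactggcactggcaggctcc
Kcnj12: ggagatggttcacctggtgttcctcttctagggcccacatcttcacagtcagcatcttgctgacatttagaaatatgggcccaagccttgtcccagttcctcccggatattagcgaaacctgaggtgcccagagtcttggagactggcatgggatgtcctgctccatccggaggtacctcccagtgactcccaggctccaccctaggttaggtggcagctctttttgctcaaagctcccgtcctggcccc
Kcnj2: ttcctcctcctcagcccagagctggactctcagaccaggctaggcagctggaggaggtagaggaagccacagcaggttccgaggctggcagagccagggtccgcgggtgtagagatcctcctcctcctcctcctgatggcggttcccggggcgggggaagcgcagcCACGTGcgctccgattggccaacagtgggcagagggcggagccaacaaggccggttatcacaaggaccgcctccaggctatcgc
Kcnh4: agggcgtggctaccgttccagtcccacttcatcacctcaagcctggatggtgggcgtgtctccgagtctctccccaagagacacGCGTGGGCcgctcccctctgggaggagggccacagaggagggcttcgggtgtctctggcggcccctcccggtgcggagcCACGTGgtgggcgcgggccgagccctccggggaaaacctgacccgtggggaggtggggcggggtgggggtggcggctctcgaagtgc
The AP-1 letters lie 116 bases before the start of Kcnip3, the E-box letters 79 bases before that of Kcnj2 and 82 before that of Kcnh4, and Kcnj12 holds none of these letters in this window. The only listed start of Kcnj12 lies inside its gene span (chr11:61022564-61073269) and not at its 5′ end. No ATAC peak lay within 1000 bases of that start, so the window may not be the promoter used in cortex. Over the 300 bases around the start, the AP-1 letters are in 2 of 74 listed promoters of channel genes (2.70%) and 5.20% of all listed promoters, the E-box in 4 (5.41%, of 3 genes) and 7.15%, and the EGR letters in 2 (2.70%) and 1.63%. The cyclic AMP response element TGACGTCA is in none of the 74 and in 1.79% of all, and its core TGACG in 16.2% and 20.8%. The match is of letters and says nothing of binding.

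The T27 changes were set beside the difference between ZT18 and ZT6 in undisturbed mice, which shares no animal with them. Across the 72 genes the changes had a Pearson r of 0.60 and a Spearman rho of 0.49, as a description across genes of the same 2 sets of libraries (r over all genes 0.52). All 11 genes called at T27 had the same direction in both comparisons, and 7 were called in both, with none called in opposite directions. Of all 2156 genes called at T27, 89.7% had the same direction and 58.1% were called the same way in both, so the counts of the channel genes are not read as particular to them.

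**Figure D4:**
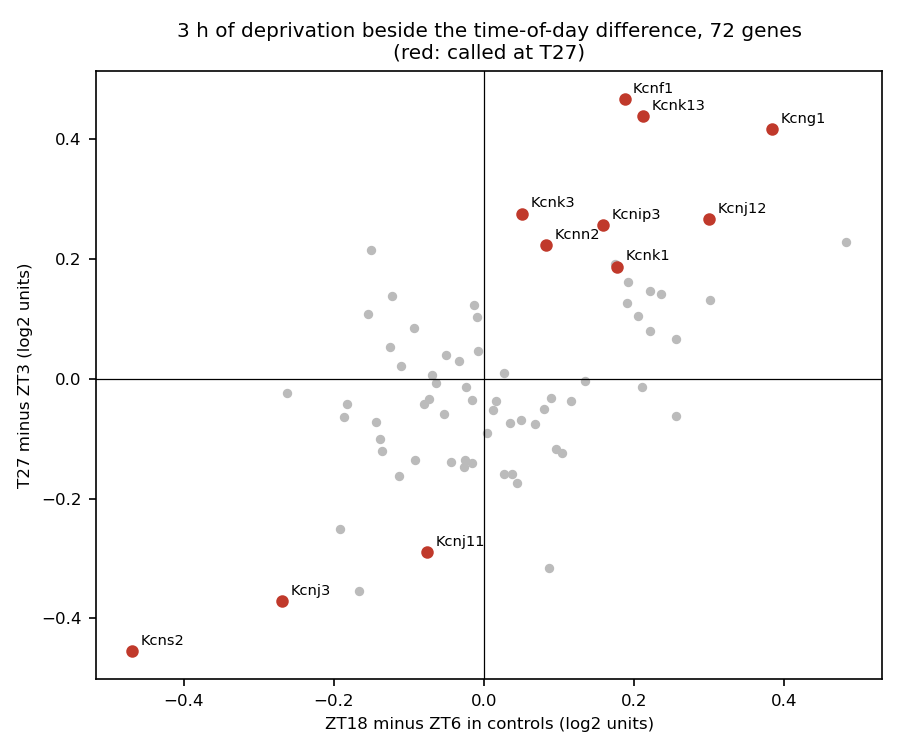
Log2 change of 72 channel genes at T27 against ZT3 (y axis) beside the difference between ZT18 and ZT6 in controls (x axis), with genes called at T27 in red and named. The red points lie in the upper right and lower left quadrants, from Kcng1 to Kcns2.

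Open chromatin was read at 854 ATAC peaks within the gene spans of 69 channel genes and at 77 peaks within 1000 bases of a listed start of 48 of them. No start peak was called by limma at T27, T30 or T36 (6, 7 and 6 of 77 at unadjusted p below 0.05). Of start peaks of any gene, 0.0443%, 0.488% and 0.0621% were called. The median change of the start peaks was -0.10 at T27, -0.04 at T30 and 0.02 at T36. Within gene spans, 6 peaks were higher and none lower at T27 (all peaks 0.658% and 0.0314%), 16 were higher and 5 lower at T30 (2.18% and 0.427%), and 3 higher and 1 lower at T36 (0.261% and 0.357%). Among the 854 peaks these are 0.703%, 1.87% and 0.351% higher, beside 0.52%, 1.45% and 0.238% of all peaks in gene spans. edgeR's quasi-likelihood test on the reads also called 6 of the 6 at T27, 15 of the 21 at T30 (10 higher, 5 lower) and 4 of the 4 at T36.

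Single libraries carried much of this: leaving out T27S5, T27S3 or T27S2 left 0, 1 or 3 higher peaks at T27, and leaving out T30S4 or T30S1 left 3 or 8 higher at T30. The 5 lower peaks at T30 became 2 without T30S1 and 8 with no batch term. At T36 leaving out T36S1 or T36S2 left 1 higher and no lower peak.

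The peak with the lowest p lay within Kcnmb2 (GRCm38 chr3:32020925-32021547, its centre 118533 bases from the listed start). Its normalized signal was 11.0, 8.85 and 12.9 at T30 against 5.30, 2.77, 3.57, 2.87 and 2.40 at ZT6, without overlap, a log2 change of 1.61 (adjusted p = 1.19e-05; edgeR 1.77, adjusted p = 8.77e-07). The RNA of Kcnmb2 was called lower at T36 and was not called at T30. A peak within Kcnma1 (chr14:23750705-23751726) was 17.6, 20.6 and 20.3 at T27 against 9.89, 11.1 and 8.56 at ZT3, and 16.5, 13.4 and 17.5 at T30 against 8.76, 10.8, 8.47, 10.3 and 10.8 at ZT6, again without overlap (log2 change 0.96 and 0.72, adjusted p = 0.0079 and 0.018). A peak within Kcnb2 (chr1:15656849-15657309) was also higher at both times (1.16 and 1.30, adjusted p = 0.028 and 0.0014), while the RNA of Kcnma1 and Kcnb2 was not called. Of the 5 lower peaks at T30, the largest falls lay in Kcnk13 (-1.26) and Kcnh7 (-1.25), both at low signal. The Kcnk13 peak was 0.97 to 1.74 at T30 against 1.50 to 4.16 at ZT6, with overlapping libraries. The Kcnh7 peak was 0.97 to 2.95 against 3.92 to 5.39, without overlap. At T30 the 21 called peaks lay in 17 genes, of which 8 had a called RNA change, while 31.6% of all genes in the RNA table were called at that time. Peak and RNA changed in the same direction for 9 of the 21 peaks. The called peaks lay in 4 genes at T27 and in 4 at T36, and 0 of these genes had a called RNA change at that time (all genes 15.6% and 11.9%). Peak and RNA had the same direction for 1 of 6 peaks at T27 and 1 of 4 at T36.

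**Figure D5:**
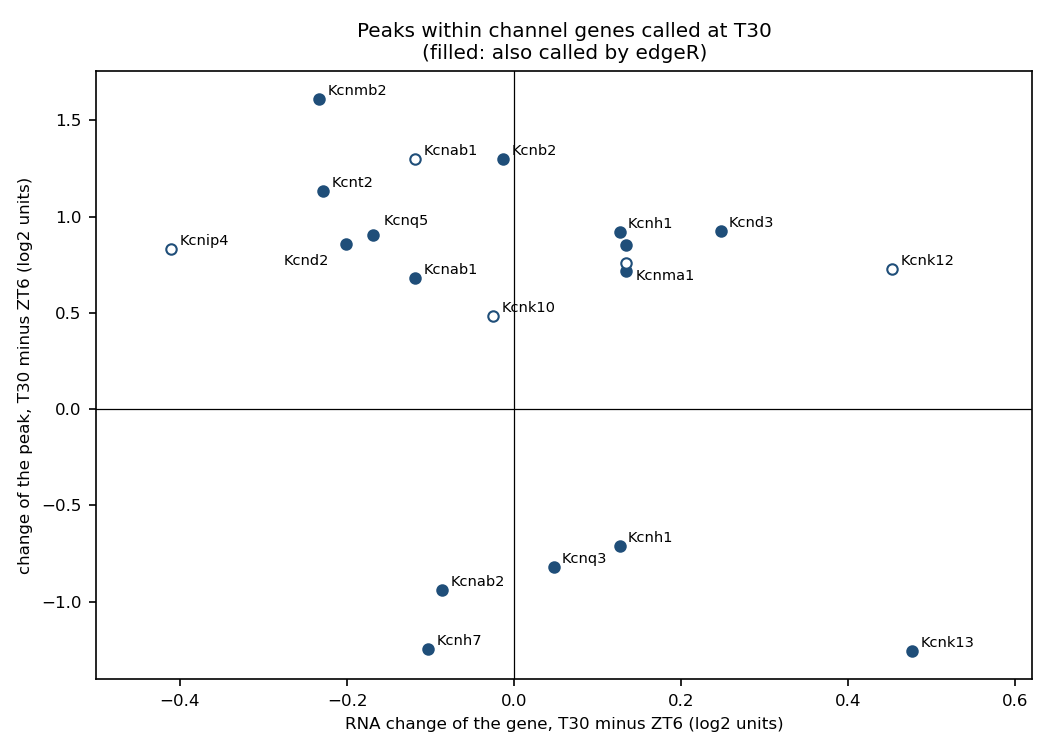
Log2 change of 20 of the 21 peaks within channel genes called at T30 against ZT6 (y axis) beside the RNA change of the same gene (x axis), filled where edgeR also called the peak. Points lie in all 4 quadrants, and the higher peaks include genes with lower RNA, such as Kcnt2, and with higher RNA, such as Kcnd3.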

How the data were processed

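RNA-seq and ATAC-seq used the cortex of single mice, and per the labels' protocols RNA libraries were stranded and poly(A)-selected. The submitters' processing notes name kallisto 0.43.0 and sleuth 0.29.0, further MACS2 2.1.1, HTSeq 0.6.1, bedtools 2.26.0, SAMtools, Bowtie2 and FastQC, with GRCm38 and mm10, without order or settings. The deposited RNA values are in log2 units with an offset of 0.5, adjusted for batch by the authors; no source used here states a scaling by gene length. The deposited ATAC signal is normalized per library; 100% of values were whole multiples of a step (tolerance 0.02), giving 2.21 to 11.9 M reads in peaks per library (median 4.09 M).

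One limma model (3.58.1, R 4.3.3) per assay had a mean per group and a batch term, moderated along mean intensity (RNA, 62 columns and 44 residual degrees of freedom; ATAC, 59 libraries and 41, on log2 of the signal plus 0.5). The p-values were two-sided and adjusted over all genes or peaks. For 1 ZT0 animal a repeated ATAC library was not used, and the first RNA column merges both libraries of another. Tests were checked on simulated data. For ATAC this was a single draw of counts with changes at T30, for part of the peaks. All peaks had the same dispersion, and the means came from the normalized signal. In this draw limma let through a larger share of false calls than its threshold, and edgeR 4.0.16 a smaller share than limma. The draw lacks the spread of the real reads, so it cannot tell how either tool behaves on them. Results of both are given, edgeR on the recovered reads. Animals of a group are separate mice per the labels, with 1 library each.

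Values of 3 members and 1 carrier gene are not reported here, though all counts include them. Members and lists were chosen with earlier results of these data known. Named were the 12 largest called rises and falls at T27, T30 and T36, 5 each way later, the 12 widest called over time of day, called differences of effects (5 each way) and members of the channel-type lists; values per animal are given for the 3 largest each way and the 3 widest over time of day. Gene spans and promoters come from RefSeq (GRCm38.p6); a span does not separate exons from introns. Alternatives were other scalings, filters, batch terms, a replicate block, batch 1 alone and leaving out each replicate.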

Additional observations from a re-analysis of the deposited data

Results flagged for a closer look

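Among the 56 control groups of 4 or more animals tested over 14 genes with values per animal, 6 held an animal far from the others by Dixon's criterion at 95%, a criterion that flags some groups by chance. The lowest ZT6 value of Kcnip4 was 6.03 (J76N1, next 6.14). Kcnj11 had a high animal at ZT12 (T12N6, 5.41, next 5.18) and at ZT18 (T18N3, 5.31, next 5.09) and a low one at ZT6 (T6N4, 5.08, next 5.17). Kcnj3 had a high animal at ZT18 (T18N4, 6.66, next 6.50) and Kcns1 at ZT6 (T6N3, 4.37, next 4.02).

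The effect of deprivation differed between times in limma's contrasts of effects. From T30 to T36 the log2 differences were 1.09 for Kcns2, 0.96 for Kcnj2, 0.43 for Kcnj3, 0.42 for Kcnj11, 0.38 for Kcnj4, -0.55 for Kcng1 and -0.37 for Kcnf1. From T36 to T42 they were 0.60 for Kcnip4, -0.58 for Kcnip2, -0.48 for Kcns2 and -0.41 for Kcns1. From T30 to T54, with shared controls, they were 0.42 for Kcnip4, 0.33 for Kcnj3, 0.30 for Kcnj11, 0.27 for Kcnh6, 0.26 for Kcnj4, -0.49 for Kcnj12, -0.47 for Kcnk13, -0.45 for Kcng1, -0.38 for Kcnj6 and -0.33 for Kcnip3.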

How the results depend on the processing

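Of 264 alternatives for the counts, 221 stayed within 1.5 times the reported count, and of 636 for single genes, 548 kept their call, 88 lost it and none changed direction. With no batch term, 1 gene was called from T48 to T198 and 8 peaks were lower at T30. Median-centring gave 5 genes lower at T27, and quantile normalization 5 lower at T27 and 1 called from T48 to T198. Filters on low values left 1 gene lower at T36 and 3 peaks higher at T27. Fitting only the groups compared left 0 genes higher at T42.

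With a replicate block, 0 genes were higher at T42, 9 higher at ZT18, 17 varied with time of day, and 1, 4 and 3 effects differed between T27 and T30, T30 and T36, and T36 and T42. The numbers do not pair the animals: over 235 pairs with the same number the median correlation of deviations was -0.00149, and 47 exceeded 0.1. In batch 1 alone, 1 gene was lower at T36 and 16 varied with time of day. Chosen after seeing the data, the same restriction gave 0 higher and 0 lower at T42 and 3 higher at ZT18.

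Leaving out 1 animal at a time gave 3 to 6 genes higher and 2 to 4 lower at T27, 9 to 14 and 4 to 8 at T30, 5 to 10 and 1 to 2 at T36, 0 to 1 higher at T42 and 0 to 2 from T48 to T198. For peaks it gave 0 to 3 higher at T27, 3 to 14 higher and 2 to 4 lower at T30, and 1 to 4 higher and 0 to 1 lower at T36. Apart from settings that hold fewer animals or features by construction, the cause was not tested. Groups of 3 animals and ATAC depth limit what could be called.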
